A study of Mus musculus with 16 samples.

Results

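The mTEC-IV population of mouse medullary thymic epithelial cells was described by its own H3K4me2 peaks: which loci held the strongest and the widest of them, by level and by rank. The members are the 22757 peaks of the authors' list for mTEC-IV, none of which is mitochondrial, and the values of both mTEC-IV libraries in the 29472 peaks merged over 4 populations. Coordinates are those of the mouse build mm9. All cells came from thymi of C57BL/6 mice and were sorted as CD45- Epcam+, so blood cells carrying CD45 were gated out. Within that gate mTEC-IV was MHCIIlow Itgb4- L1cam+, and the populations it is set beside were mTEC-I (MHCIIlow Itgb4+), mTEC-II (MHCIIhigh) and mTEC-III (Ly6D+). Each population has 2 H3K4me2 libraries, and 8 whole-cell extract samples are not analysed here. mTEC-IV is a sorted fraction enriched for one cell type, so its signal is that of all cells in the gate. In such bulk chromatin, fewer cells with a mark and less mark per cell cannot be told apart. Nothing in the labels says that replicates are different mice, so p-values below measure the spread between libraries alone, and that spread may be technical.

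Dimethylation of histone H3 at lysine 4 is laid down at active and primed promoters and enhancers. Medullary thymic epithelium shows proteins of the body's tissues to maturing T cells. One branch of its cells resembles the tuft cells of gut and airway, chemosensory cells that depend on the transcription factor Pou2f3 and signal through taste receptors, the G protein gustducin, a phospholipase C and the channel Trpm5.

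Promoter sequences are shown for 5 genes whose start site lay inside the merged peak that holds a strong mTEC-IV peak. A merged peak can be wider than the mTEC-IV list peak in it, as for Abhd2. The windows set side by side starts rich and poor in CpG, the dinucleotide that marks CpG islands. Each runs from 250 bases before to 50 bases after the gene's first listed start and comes from RefSeq on GRCm38.p6, a build other than that of the peaks. No coordinates were converted, and the start listed there may differ from the one in the mm9 annotation. The capitals mark every CG. Trpm5 (chr7:143094593-143094892, minus strand) and Pik3cg (chr12:32208610-32208909, minus strand) hold 5 and 4 CG. Rassf6 (chr5:90640478-90640777, minus strand), Abhd2 (chr7:79273016-79273315, plus strand) and Tnrc18 (chr5:142817613-142817912, minus strand) hold 13, 24 and 21.
Trpm5: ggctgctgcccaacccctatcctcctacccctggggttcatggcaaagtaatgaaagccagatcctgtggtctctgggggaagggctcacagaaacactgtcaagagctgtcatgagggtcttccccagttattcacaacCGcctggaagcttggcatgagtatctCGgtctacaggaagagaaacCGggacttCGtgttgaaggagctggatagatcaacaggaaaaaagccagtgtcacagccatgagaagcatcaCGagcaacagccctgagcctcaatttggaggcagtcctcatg
Pik3cg: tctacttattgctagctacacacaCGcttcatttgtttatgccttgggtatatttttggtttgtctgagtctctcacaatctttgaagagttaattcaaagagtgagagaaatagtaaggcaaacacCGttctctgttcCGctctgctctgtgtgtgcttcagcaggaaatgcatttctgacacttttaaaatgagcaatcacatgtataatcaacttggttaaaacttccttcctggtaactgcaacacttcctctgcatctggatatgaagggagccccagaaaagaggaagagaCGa
Rassf6: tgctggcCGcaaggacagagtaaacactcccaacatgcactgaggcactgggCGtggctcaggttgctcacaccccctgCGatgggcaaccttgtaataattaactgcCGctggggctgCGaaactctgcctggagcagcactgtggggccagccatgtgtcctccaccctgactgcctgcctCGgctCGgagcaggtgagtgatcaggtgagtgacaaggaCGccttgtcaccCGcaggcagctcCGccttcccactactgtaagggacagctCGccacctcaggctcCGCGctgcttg
Abhd2: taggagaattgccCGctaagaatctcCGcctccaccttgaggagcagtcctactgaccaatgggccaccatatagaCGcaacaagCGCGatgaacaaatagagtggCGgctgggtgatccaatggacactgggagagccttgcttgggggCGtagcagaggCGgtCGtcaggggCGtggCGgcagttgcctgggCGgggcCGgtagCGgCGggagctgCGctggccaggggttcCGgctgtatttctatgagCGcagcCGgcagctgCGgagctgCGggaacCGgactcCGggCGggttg
Tnrc18: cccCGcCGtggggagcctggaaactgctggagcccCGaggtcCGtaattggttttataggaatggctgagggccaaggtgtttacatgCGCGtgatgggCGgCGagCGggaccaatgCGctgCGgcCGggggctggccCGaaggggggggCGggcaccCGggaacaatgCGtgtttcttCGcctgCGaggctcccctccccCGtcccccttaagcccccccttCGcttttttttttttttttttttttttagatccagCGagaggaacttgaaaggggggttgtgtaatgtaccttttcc
Over all 27025 genes of the RefSeq table the median first promoter holds 7 CG, with quartiles at 3 and 21. The octamer ATGCAAAT, the letters recognised by POU factors such as Pou2f3, was searched on both strands and is in none of these 5 windows, against 1.75% of all first promoters. The TATA box letters TATAAA, also searched on both strands, are in Tnrc18 alone, and 14.16% of all first promoters hold them. These matches describe the letters of a short window and no more.

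One strong peak of the promoter class, which is set by distance alone, was assigned to a microRNA gene, Mir21a, on chr11:86390991-86402811. Its centre lies 759 bases from the annotated Mir21a start and is annotated at a transcript end, so the peak is not shown to be a promoter. The list gives it 854.1 tags per 10000000 (tags scaled to a library of that size), rank 33, over 11.8 kb. Both mature arms are printed from RefSeq (GRCm38.p6) with the seed, bases 2 to 8, in capitals. The arms do not share a seed.
mmu-miR-21a-5p: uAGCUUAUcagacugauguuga
mmu-miR-21a-3p: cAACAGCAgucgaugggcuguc
In the merged table this peak stood at 814 and 844 in mTEC-IV replicates 1 and 2, against means of 548 in mTEC-I, 532 in mTEC-II and 589 in mTEC-III.

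The mTEC-IV libraries held 9093698 and 8369277 tags, of which 34.9% and 35.4% lay in merged peaks. One tag is therefore worth 1.10 and 1.19 tags per 10000000, and a count of 0 allows up to 3 tags, or 3.30 and 3.58, covering counting error only. Across merged peaks the libraries correlated at Pearson 0.974 and Spearman 0.983 on the log2(value + 1) scale. Peaks are not independent replicates, so this is a description. The log2 difference between the libraries had an SD of 0.33 over all peaks and of 0.102 over the strongest 500, and 88 of the 100 strongest peaks were the same in both. Among the other populations mTEC-I replicate 2 was the shallowest library, with 1702103.5 tags.

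The label was first checked against L1cam, Trpm5 and Pou2f3, the marker genes given for it. Pou2f3, the master transcription factor of tuft cells, held the peak of rank 17 in the mTEC-IV list, with 1002.4 tags per 10000000 over 13.8 kb (chr9:43001073-43014823) across its start and first intron. In the merged table that peak stood at 972 and 1032 in mTEC-IV, and at means of 155 (mTEC-I), 230 (mTEC-II) and 357 (mTEC-III) elsewhere. Trpm5, the cation channel of taste signalling, held rank 98 with 627.9 tags over 8.2 kb (chr7:150272551-150280735). It stood at 603 and 662 in mTEC-IV against 17.6 to 37.3 in the 6 other libraries. L1cam, a cell adhesion molecule and the sort marker, had a far weaker peak in its first intron (chrX:71119573-71122361), at rank 13371 with 96.5 tags over 2.8 kb. The L1cam intron peak measured 88.0 and 99.8 in mTEC-IV and 5.88 to 14.1 elsewhere. A merged peak at the L1cam promoter (chrX:71124208-71126344) averaged 96.9 in mTEC-IV. Summed over its 2 peaks, L1cam stood at 181 and 200 in mTEC-IV. The other means were 67.8 in mTEC-I, 59.8 in mTEC-II and 47.6 in mTEC-III, so L1cam held signal there too, outside the intron peak. All 3 marker genes thus carried peaks in mTEC-IV, with both libraries above every other library, although by rank within the population only Pou2f3 and Trpm5 were among the strongest 100 peaks. The Trpm5 peak and the L1cam intron peak were drawn from the mTEC-IV list alone, so they entered the merged table because they were high there. Their standing above the other libraries is therefore no independent check of the label.

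Other genes of the gate were spread over the ranking. Epcam, the epithelial adhesion molecule on which all cells were sorted, had its strongest list peak at rank 459 with 416.9 tags. For H2-Ab1, an MHC class II chain, the strongest peak ranked 2306 with 248.8 tags over 3.3 kb, and for H2-Aa, its partner chain, it ranked 8671 with 140.9 tags. Itgb4, the integrin chain that the gate excluded, ranked 5389 with 179.0 tags, and Ly6d ranked 17645 with 64.4. Ptprc encodes CD45, the antigen that the gate excluded, and its promoter nevertheless held a peak of 148.9 tags at rank 7921 (chr1:140070483-140072731). That peak, drawn from the mTEC-IV list alone, measured 139 and 155 in mTEC-IV and at most 12.6 in the other libraries. The levels of blood cell marker genes are given with the gene lists below.

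The peaks of mTEC-IV formed a steep hierarchy. In the list the median peak held 115 tags per 10000000, with quartiles at 67.9 and 175, a 99th percentile of 501 and a maximum of 1786. Only 17 peaks exceeded 1000 tags. In the merged table the strongest 1% of peaks, 295 in number, held 5.73% and 5.74% of the in-peak signal of replicates 1 and 2. The values of a list peak pool both replicates and are the authors' own, so they carry no error, and the strongest and widest peaks are described without a test because their values chose them.

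**Figure D1:**
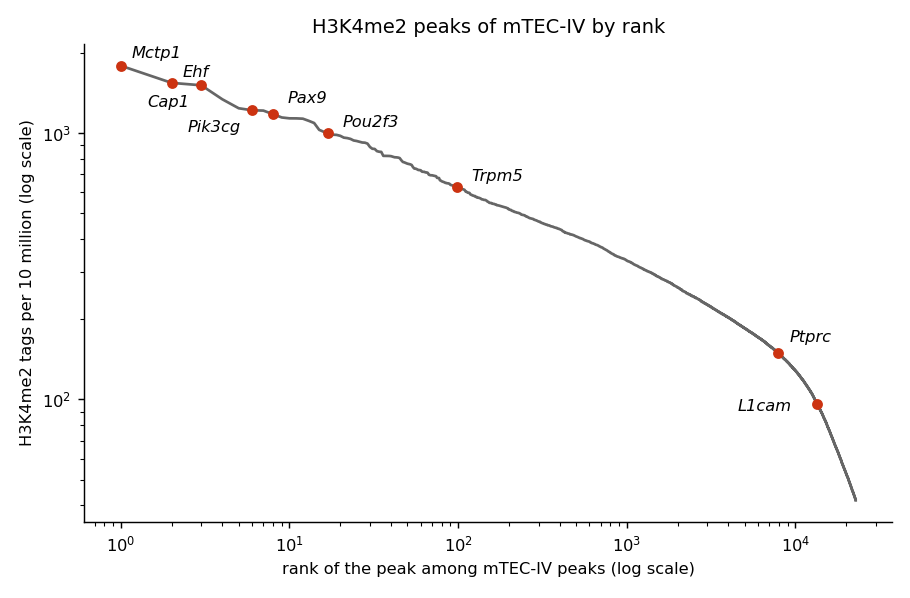
Level of each of the 22757 mTEC-IV list peaks (y axis, H3K4me2 tags per 10000000, log scale) against its rank (x axis, log scale), as a line, with 9 named peaks as points. Mctp1 leads at 1786.4, Pou2f3 is at rank 17, Trpm5 at rank 98, and L1cam lies far down at rank 13371.

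Mctp1, which encodes a membrane protein with calcium-binding C2 domains, held the strongest peak. It covers chr13:76676582-76696438, 19.9 kb of the first of 20 introns and 164 kb from the nearest annotated start, with 1786.4 tags. The merged table gives 1786 and 1754 in mTEC-IV (1770 ± 23, SD, n = 2). The 6 other libraries ranged from 82.8 to 174, and there the same peak ranked 13940 in mTEC-I, 6028 in mTEC-II and 8742 in mTEC-III. The merged peak was drawn from the mTEC-IV list alone.

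Ehf, an ETS transcription factor of epithelial cells, came second with 1540.4 tags over 19.6 kb (chr2:103122516-103142112), in a merged peak centred in its first intron. Its merged peak measured 1662 and 1734 in mTEC-IV and 672 to 1026 in the other libraries, where it was also a strong peak, of rank 44, 50 and 14. Cap1, which binds adenylyl cyclase and actin, ranked 3 in level and was the widest, with 1508.6 tags over 21.8 kb (chr4:122543006-122564844). It measured 1507 and 1509 in mTEC-IV against 440 to 615 elsewhere. Rassf6, of the Ras association domain family, ranked 4 with 1336.3 tags over 17.4 kb (chr5:91055421-91072807), at 1328 and 1344 in mTEC-IV and 399 to 542 elsewhere. All 3 merged peaks cover the gene's start, and in each the mTEC-IV libraries do not overlap the others. The list peak of Ehf is narrower than its merged peak and was not itself placed against the start.

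Pik3cg, the catalytic subunit of a phosphoinositide 3-kinase best known from blood cells, ranked 6 with 1215.7 tags over 16.6 kb (chr12:32879018-32895634). It resembled Mctp1 in how the populations were placed: 1228 and 1169 in mTEC-IV, and 88.2 to 149 in the 6 other libraries. Mbnl1, a regulator of splicing, ranked 9 with 1142.4 tags over 15013 bases of its second intron (chr3:60331050-60346062), 33.5 kb from a start. Its merged peak stood at 1163 and 1121 in mTEC-IV and at 276 to 474 elsewhere.

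The rest of the 10 strongest peaks were about as high in other populations. Lincppara, a long noncoding RNA gene, was nearest to the fifth peak (chr15:85496130-85513280, 1236.9 tags), an intergenic stretch of 17.2 kb that lies 30.2 kb from the start. It measured 1302 and 1335 in mTEC-IV, inside the range of 1092 to 1418 of the other libraries. Pax9, a transcription factor required for the thymic rudiment, ranked 8 with 1174.8 tags over 13.6 kb (chr12:57791334-57804972), at 1150 and 1222 against 1089 to 1300 elsewhere. The RNA gene 3110039M20Rik ranked 10 with 1133.8 tags (chr12:50482037-50496629), at 1142 and 1162 against 1079 to 1639. Pisd-ps2, a pseudogene of a mitochondrial lipid enzyme, ranked 7 with 1212.3 tags in only 3.3 kb (chr17:3081947-3085255), at 1206 and 1243 against 1019 to 1401. Pseudogenes have near-identical copies, and the handling of reads shared between copies is not stated, so this value is uncertain. In all 4 of these peaks the mTEC-IV values fell within the range of the other libraries. Eya1, a transcription cofactor of thymus development, missed the first 10 by a small margin, at 1133.3 tags against 1133.8.

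**Figure D2:**
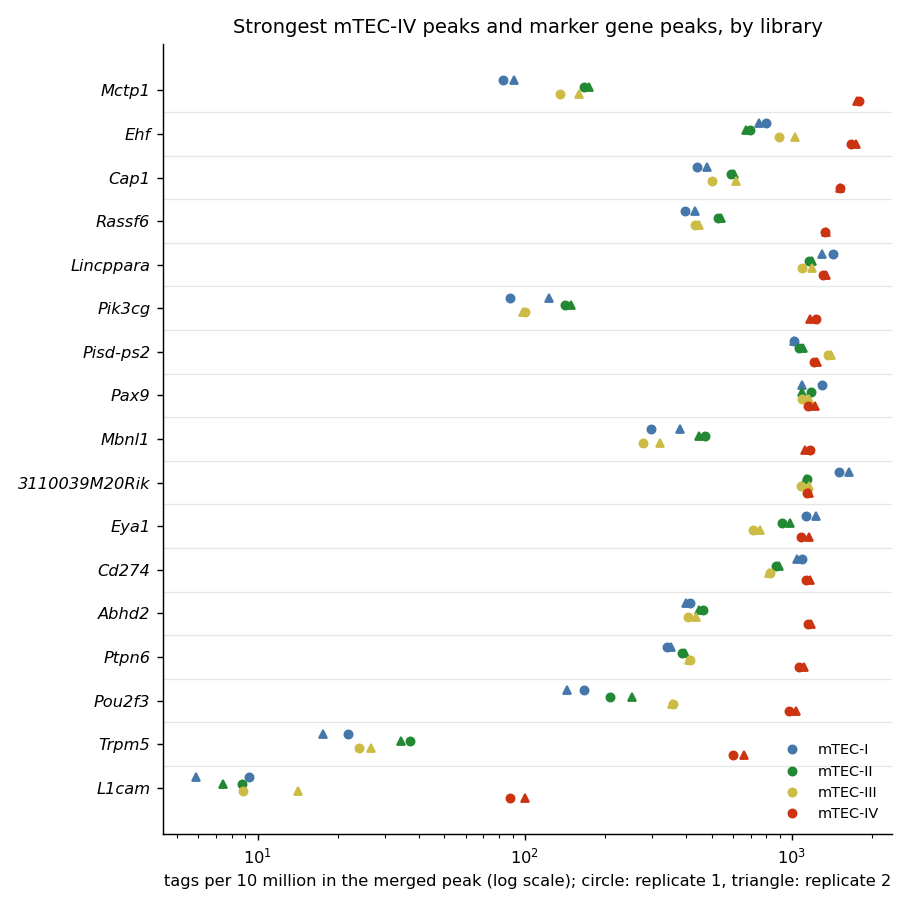
H3K4me2 in the merged peaks (x axis, tags per 10000000, log scale) that hold the 14 strongest mTEC-IV list peaks, in order of list level, and the strongest peaks of Pou2f3, Trpm5 and L1cam. Colours are populations, circles replicate 1 and triangles replicate 2. Mctp1 and Pik3cg show mTEC-IV above 1000 and the others below 200, while Lincppara, Pax9 and 3110039M20Rik show all populations above 1000.

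Level followed width. Peak lengths ran from 0.501 to 21.84 kb with a median of 1.76 kb, and 802 peaks exceeded 5 kb and 56 exceeded 10 kb. Over all list peaks the Spearman correlation of length and tags was 0.921, a description of quantities that share the same called interval. It was 0.375 for length and tags per kb. Of the 10 strongest peaks 7 were also among the 10 widest, and 74 of the strongest 100 were among the widest 100. The widest 10 added 3 genes to the strongest 10. Abhd2, a lipase-like hydrolase, held 16033 bases (chr7:86418987-86435019, 1109.8 tags). For Meis2, a homeobox transcription factor, the peak spans 15.9 kb (chr2:115880315-115896245, 956.0 tags). The peak of Cd274, which encodes the checkpoint ligand PD-L1, spans 14.7 kb (chr19:29438730-29453454, 1130.4 tags). Ptpn6, the phosphatase SHP-1 of blood cell signalling, lay just outside them at 14.6 kb (chr6:124677758-124692376, 1088.9 tags).

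These wide peaks again differed in how far mTEC-IV stood from the rest. The merged Abhd2 peak measured 1143 and 1180 in mTEC-IV and 402 to 464 elsewhere, and Ptpn6 measured 1063 and 1105 against 340 to 414. For Cd274 the mTEC-IV values were 1126 and 1163, with mTEC-I close behind at 1090 and 1040. Meis2 went the other way, with 1255 and 1393 in mTEC-IV and 1908 and 1692 in mTEC-I.

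Per unit of length the order was different. The median list peak held 63.6 tags per kb, and only 8 of the strongest 100 peaks were among the 100 densest. Mctp1 held 90.0 tags per kb and ranked 1027 by density, Ehf held 78.6 and Cap1 69.1. Among peaks of at least 1 kb the densest was an intergenic stretch of 1.2 kb on chr1:197067134-197068362, 64.8 kb from Cr2, the nearest gene, with 742 tags per kb. Next came Pisd-ps2, with 366 tags per kb. They were followed by a pair of overlapping peaks assigned to Pisd-ps3, with 257 and 220 tags per kb, and by the promoter of Hjurp, which encodes a histone chaperone of the centromere, with 252. The authors' fold over control was 4.16 and 8.4 for the Pisd-ps3 pair and 9.25 for Pisd-ps2, under the list's lower quartile of 11.4. It was 26.94 near Cr2 and 25.93 at Hjurp. The doubt about pseudogene copies holds for Pisd-ps3 as for Pisd-ps2. These dense peaks lay in or near the range of the other populations: the peak near Cr2 measured 853 and 970 in mTEC-IV against 743 to 942 elsewhere, Pisd-ps3 869 and 894 against 688 to 1123, and Hjurp 663 and 665 against 646 to 773.

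**Figure D3:**
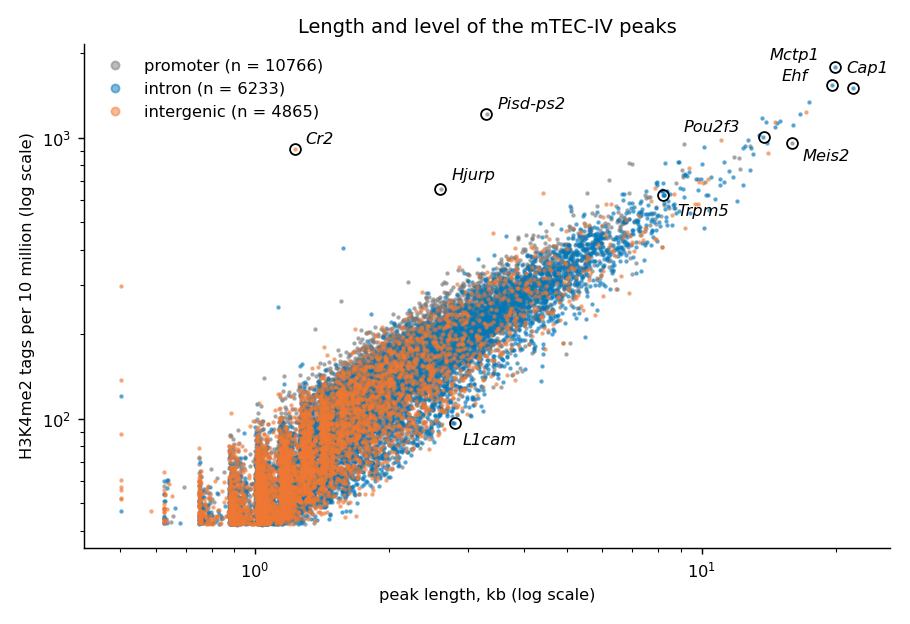
Length (x axis, kb, log scale) and level (y axis, tags per 10000000, log scale) of the mTEC-IV list peaks in the promoter, intron and intergenic classes, with 10 named peaks circled. Most peaks lie along a band that rises through Trpm5 to Mctp1, Ehf and Cap1, while Cr2, Pisd-ps2 and Hjurp lie far above it for their length. L1cam, at 34.6 tags per kb and density rank 22617, lies low for its length.

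By position, 47.3% of list peaks were of the promoter class, meaning that the centre of the merged peak lies within 1 kb of a start site, 27.4% were intronic and 21.4% intergenic. The strongest 100 were 20 promoter, 56 intron and 12 intergenic peaks. The class is set by the centre, and a wide peak can cover a start while its centre lies in an intron. For 86 of the strongest 100 list peaks the merged peak covered a start site, against 56.5% of all list peaks. Coverage was judged on the merged peak, which can be wider than the list peak. Promoter peaks had a median of 146 tags and 2.05 kb, intron peaks of 85.3 tags and 1.56 kb, and intergenic peaks of 73.6 tags and 1.32 kb. The upper end was ordered differently, with 99th percentiles of 596 tags in introns, 439 at promoters and 407 between genes.

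Within the promoter class the 5 strongest peaks were those of Pisd-ps2, Meis2, Bahcc1, Tnrc18 and Mir21a. Bahcc1, a BAH-domain protein of chromatin, held 949.2 tags over 9.1 kb (chr11:120090521-120099651), and Tnrc18 held 936.6 over 12.9 kb (chr5:143572246-143585096). Bahcc1 measured 959 and 937 in mTEC-IV against 816 to 895, close to the other populations without overlap, and Tnrc18 overlapped them, at 951 and 992 against 941 to 1103. Among intergenic peaks the strongest were those nearest to Lincppara, 3110039M20Rik, Setd1b, Cr2 and Psmd14. Setd1b encodes an H3K4 methyltransferase, and its peak (chr5:123584350-123595426, 982.9 tags) measured 1068 and 1079 in mTEC-IV against 957 to 1205. The peak 54.9 kb from Psmd14, a proteasome subunit gene (chr2:61487771-61501839, 885.3 tags), was the one of these 5 that set mTEC-IV apart, at 897 and 861 against 251 to 330.

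Summed over all merged peaks nearest to a gene's start, H3K4me2 ranked 15739 genes. Such a sum grows with the number of peaks (Spearman 0.577 across genes), which had a median of 1 over all genes and 9 over the top 100, and it compares neighbourhoods rather than equal lengths. Nfia, a nuclear factor I transcription factor, led with 3056 and 3135 tags per 10000000 over 23 peaks, the most of any gene. It was high everywhere, with means of 2913 in mTEC-I, 2790 in mTEC-II and 2370 in mTEC-III. Mctp1 was second with 2430 and 2384 over 9 peaks, against means of 371, 491 and 393. Meis2 ranked 3 with 2265 and 2410, where mTEC-I averaged 3060.

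The next genes were Lincppara, Abhd2, Ivns1abp, Meis1, Rbm47, Mbnl1, Eya1, Zfp217, Tank, Pde4b, Klf4 and Ehf, from 2258 down to 1810. Ivns1abp, a kelch-repeat protein of actin and RNA processing, stood at 2185 and 2194 in mTEC-IV and at means of 548 to 624 in the others. Abhd2 stood at 2221 and 2239 against 628 to 832. Rbm47, an RNA-binding protein, reached 2189 and 2124 against 1155 to 1614, and Tank, an adaptor of NF-kB signalling, 1977 and 1963 against 940 to 1588. Klf4, a Kruppel-like factor of epithelial differentiation, reached 1838 and 1884 against 911 to 1173. Pde4b, a cyclic AMP phosphodiesterase, and Zfp217, a zinc finger protein, stood at 1896 and 1894 and at 1940 and 2096, with the other populations between 1724 and 1861 and between 1698 and 1849. Some of the 15 genes thus had mTEC-IV sums well apart from every other population, and others were high throughout. After Nfia, the genes with most peaks were Adgrl2 with 17 and Cdkal1 with 16.

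**Figure D4:**
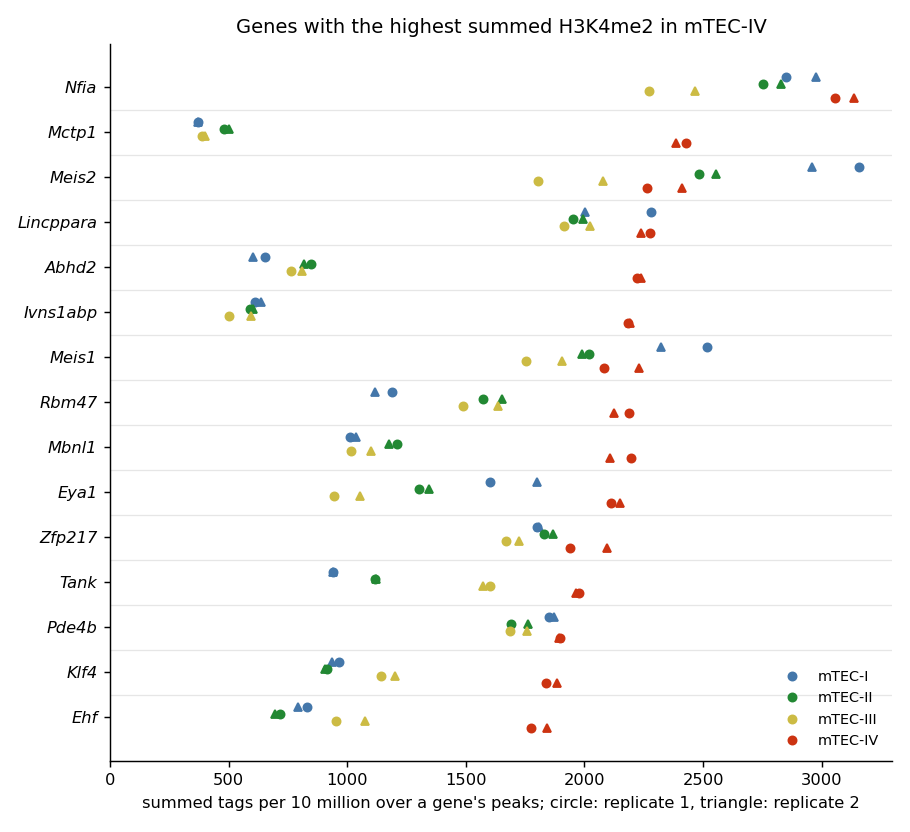
Summed H3K4me2 (x axis, tags per 10000000) over the peaks of the 15 genes with the highest mean in mTEC-IV, in order. Colours are populations, circles replicate 1 and triangles replicate 2. Mctp1, Abhd2 and Ivns1abp have all other populations below 850, while Nfia, Meis2 and Meis1 have mTEC-I near or above mTEC-IV.

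Gene lists of known tuft cell biology were placed in this ranking, as a percentile of the gene's mTEC-IV sum among the 15739 genes, and their members were tested in the comparison of mTEC-IV with the mean of the other 3 populations (limma on log2 sums, Benjamini-Hochberg adjusted p under 0.05). Of all 15738 genes tested, 20.4% were higher in mTEC-IV and 12.6% lower, with a median log2 difference of 0.02. Of the genes called, 61.8% were higher, but only 44.2% when each library was scaled to equal totals in peaks. The lists were drawn up because mTEC-IV was known to be tuft-like, so their direction is no independent evidence. Members named below for their call in this comparison were picked after their values were seen. A gene whose merged peaks all came from the mTEC-IV list alone entered the table only because it was high there, so such genes, 539 of 15739, are left out of the counts of calls for each list unless all members are named as the base.

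Transcription factors of tuft cells had high sums: all 15 had a peak, 9 were in the top 10% of genes, and the median percentile was 95.5. Of the 14 with a peak called in another population too, 11 were higher, none was lower and 3 were not called, Sox4 and Sox9 among them. Runx1, a factor of blood and epithelial cells, stood at 1653 and 1678 over 9 peaks, against means of 721 to 952. Pou2f3 followed with 1515 and 1542 against 329 to 611. Nfatc1, a calcium-regulated factor, and Hivep3, a zinc finger factor, stood at 978 and 988 and at 864 and 918. The lowest member was Chd4, a nucleosome remodeller, at 82.5 and 95.6, percentile 19.3, and its 1 peak came from the mTEC-IV list alone.

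Genes of taste transduction came close behind. Of 19 genes 16 had a peak, the median percentile was 93.5 and 9 were in the top 10%. The peaks of 9 of the 16, Trpm5, Rgs13 and Gnat3 among them, came from the mTEC-IV list alone. Of the other 7, 5 were higher, none was lower and 2 (Itpr3 and Trpm4) were not called. The list's strongest members were Rgs13 and Rgs2, regulators of G protein signalling, then Gnat3, the alpha subunit of gustducin, and Itpr2, a calcium release channel. Rgs13 stood at 1074 and 1025 in mTEC-IV and at means of 38.2 to 61.8 elsewhere. Gnat3 stood at 915 and 935 against 47.4 to 51.6, and Rgs2 at 987 and 866 against 381 to 496. The lowest, Rgs21, reached 42.3 and 52.0, percentile 8.0. Tas1r1, Tas1r2 and Ovol3 had no peak nearest to their starts.

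Bitter taste receptors, the Tas2r family, ranked lower than the lists above. The list is every Tas2r symbol that the merged table annotates, 20 in all. A receptor without a peak is not counted. Their median percentile was 49.6, in the middle of all genes, and only 2 were in the top 10%. The peaks of 18 of them came from the mTEC-IV list alone, so no count of calls is given. Tas2r115 and Tas2r108 led with 604 and 596 and with 549 and 554, against means of 26.5 to 31.0 and of 18.7 to 31.3 in the other populations. The lowest, Tas2r143, stood at 33.5 and 24.5, percentile 3.8, against means of 34.3 to 60.2. Over the family the sums were 4195 and 4087 in mTEC-IV and 304 to 414 in the other libraries. Because 18 of the 20 entered through the mTEC-IV list alone, these sums are no fair comparison of the family between populations. Tas2r genes lie in clusters of similar copies, so their single values are uncertain. In mTEC-I replicate 2 a count of 0 allows up to 17.6 tags per 10000000, so low receptor values there are at the limit of depth.

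Effector and surface genes of tuft cells had a median percentile of 91.7, and 17 of the 33 with a peak, of 38 listed, were in the top 10%. The peaks of 10 came from the mTEC-IV list alone, Lrmp, Vil1 and Ptprc among them. Of the other 23, 20 were higher and 2 (Il4ra and Il13ra1) were not called. The prostaglandin synthase gene Ptgs2 was lower, at 222 and 201 against means of 216 to 308, a call lost without mTEC-II replicate 2 or either mTEC-IV replicate. Pik3cg led with 1817 and 1753 over 8 peaks against means of 195 to 249. Lrmp, a membrane protein of the endoplasmic reticulum, stood at 1332 and 1310 against 97.1 to 121. Krt8, a keratin of simple epithelia, stood at 1108 and 1198 against 518 to 585, and Dclk1, a kinase widely used as a tuft marker, at 1054 and 1115 against 332 to 524. The lowest was Vil1, villin of the brush border, at 106 and 89.0. Ptprc belongs to this list as well, with a sum of 269 and 265 against 32.0 to 43.9. Chat, Sh2d6, Ly6g6f, Ltb and Kctd12 had no peak.

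Factors that define the thymic epithelium as a whole also ranked high in mTEC-IV, but more of them were lower than elsewhere than were higher. Of 20 genes 19 had a peak, with a median percentile of 93.5 and 12 in the top 10%. In the comparison 5 were higher, Eya1, Hoxa3, Nfkb2 and Spib among them, 9 were lower and 5 were not called, and the 9 became 4 without mTEC-IV replicate 1. Meis1, Eya1 and Pax9 were among the highest. Eya1 stood at 2110 and 2151 against means of 1000 to 1701. Meis1, at 2084 and 2231, lay within the range of the others, with a log2 difference of 0.06 (adjusted p = 0.379). Pax9 was lower by this test, at 1436 and 1476 against 1490 to 1892 (log2 difference -0.20, adjusted p = 0.0109), a call that was lost without either mTEC-IV replicate (adjusted p = 0.138 and 0.074) and with peaks within 20 kb alone (difference 0.00). The largest falls among the 9 were those of Foxn1 and Isl1. Foxn1 stood at 175 and 185 against means of 441 to 608 (log2 difference -1.46, adjusted p = 6.6e-10). Isl1 stood at 814 and 808 against 920 to 1804 (log2 difference -0.69, adjusted p = 6.6e-07). Relb, an NF-kB subunit of medullary maturation, had the lowest sum at 115 and 149. Aire, the regulator of tissue antigen expression, had no peak nearest to its start.

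Epithelial identity genes had a median percentile of 92.5, with 15 of 25 in the top 10% and 13 higher, 2 (Krt7 and Spint2) lower and 10 not called. The 2 became 1 without mTEC-II replicate 1, without mTEC-III replicate 2 or without either mTEC-IV replicate. Klf4, Ehf, Klf5 and Krt8 led. Klf5, another Kruppel-like factor, stood at 1751 and 1794 against means of 735 to 1094. Ehf was at 1776 and 1844 against 707 to 1013. Elf5 was the lowest at 68.7 and 60.3. Of 15 regulators of gut and liver 11 had a peak, with a median percentile of 81.1. The peak of Isx came from the mTEC-IV list alone, and of the other 10, 7 were higher and 3 (Hnf4g, Gata4 and Onecut2) were not called. Foxa1, a pioneer factor, led at 865 and 904 against means of 409 to 841. Genes active in every cell, used as a reference, had a median percentile of 82.9, with 17 of 20 having a peak, and 3 were higher, 2 lower and 12 not called. The count of higher genes was 1 with equal totals in peaks, with DESeq2 and without any single mTEC-II or mTEC-IV replicate, and 5 with edgeR or without mTEC-I replicate 2, and the count of lower genes was 1 or 0 without an mTEC-IV replicate and 1 without mTEC-II replicate 1 or with peaks within 20 kb. The tuft, thymic and epithelial factor lists thus had higher medians than that reference list, and no test of this was made because the lists were chosen with results known.

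**Figure D5:**
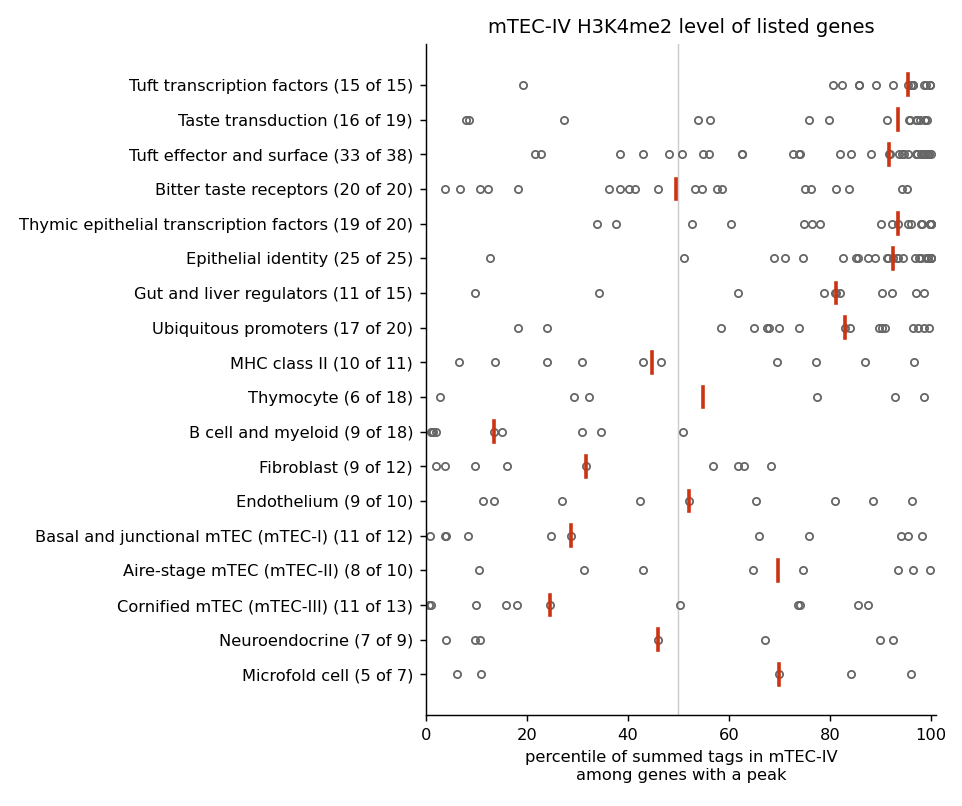
Percentile of each listed gene's summed mTEC-IV tags among the 15739 genes with a peak (x axis), 1 row per list, with the number of genes that have a peak of those listed. Circles are genes and red bars are list medians. Tuft, taste, thymic and epithelial factor lists have medians above 90, while bitter receptors and MHC class II genes have medians of 49.6 and 44.7.

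MHC class II genes were mostly lower in mTEC-IV than in the mean of the other populations. Both mTEC-IV and mTEC-I were sorted for low MHC class II. Of 11 genes 10 had a peak, with a median percentile of 44.7, and 9 were lower and 1 (H2-Eb2) was not called. H2-Eb1 stood highest, at 696 and 702 against means of 946 to 1006, and H2-Ab1 at 397 and 367 against 562 to 628. In mTEC-I these genes averaged 946 and 565, beside 1006 and 628 in the MHCIIhigh mTEC-II. The lowest was H2-Ob, at 46.7 and 35.9. Markers of the other mTEC populations had lower median percentiles than the tuft factors. The basal list of mTEC-I had a median percentile of 28.7 with none higher and 6 lower, and Lamb3 was its lowest member. The cornified list of mTEC-III had a median of 24.5, with 2 higher and 4 lower, and the 2 became 1 with DESeq2 or without mTEC-IV replicate 1 and 0 without replicate 2. The Aire-stage list of mTEC-II stood at 69.6, with 1 higher and 4 lower, led by Fezf2 at 1466 and 1376. Without mTEC-IV replicate 2 these counts were 0 and 2, and the call of Fezf2 was among those lost (adjusted p = 0.108).

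Markers of other cell types, blood cells and stroma as well as other epithelial cells, were also counted. Of 18 thymocyte genes 12 had no peak, among them Cd3e, Cd3d, Cd3g, Cd4, Cd8a and Rag1, and the summed level of the other 6 was 1907 and 2022 in mTEC-IV and 1619 to 2086 in the other libraries. Bcl11b, a factor of T cells and of some epithelia, had the highest sum of these, 889 and 918. Themis, a thymocyte signalling gene, was higher, Cd2, an adhesion gene, was lower and 4 were not called. Themis, whose peaks lie far from its start, had no peak within 20 kb and was not tested under that setting. Without mTEC-I replicate 1 the log2 difference of Tcf7 was 0.21, against 0.10 with all libraries. The call of Cd2 was lost with DESeq2 (adjusted p = 0.0586). It was also lost without mTEC-IV replicate 1 or 2 (log2 difference -0.68 and -0.93) and without mTEC-II replicate 2 (-0.72). Of 18 B cell and myeloid symbols 9 had no peak, including Ms4a1, Lyz2, Spi1 and Tyrobp, and Adgre1 counts there also under its older symbol Emr1. The other 9 summed to 597 and 658 in mTEC-IV and to 306 to 566 elsewhere, with a median percentile of 13.5, and Cd79a had its peak from the mTEC-IV list alone. Of the other 8, 3 were higher (Pax5, Cd79b and Flt3), 2 lower (Itgam and Itgax) and 3 not called. The call of Flt3 was lost with equal totals in peaks, with DESeq2, and without any 1 of 5 libraries (log2 difference 0.65 without mTEC-IV replicate 2). Itgam and Itgax had no peak within 20 kb, so neither was tested under that setting. The count of lower genes was 1 with DESeq2 and changed when some single libraries were left out. Pax5, a B cell factor, was the highest at 170 and 181 against means of 33.6 to 178. Fibroblast markers summed to 1122 and 1189 (656 to 1557 elsewhere) and had 2 higher and 3 lower of 8, beside Pdgfrb, whose peaks came from the mTEC-IV list alone. Endothelial markers summed to 2190 and 2163 (1301 to 1594 elsewhere), with 3 of 7 higher and none lower, beside Cdh5 and Emcn, whose peaks came from the mTEC-IV list alone. Over all 9 the count of higher genes was 5. Only 6 of the 9 had a peak within 20 kb, and 2 were higher under that setting. Cdh5, Emcn and Pecam1 had none and were not tested there. Flt1, a receptor of vascular growth factors, led the endothelial list, and its log2 difference of 0.32 (adjusted p = 0.00604) became -0.05 with peaks within 20 kb alone. Neuroendocrine markers had 0 higher and 2 lower of 7, and microfold cell markers 2 higher and 1 lower of 4, beside Ccl9, whose peak came from the mTEC-IV list alone. Without mTEC-IV replicate 1 the fibroblast counts over all 9 were 1 and 1, the endothelial count of higher genes over all 9 was 3 and the neuroendocrine count of lower genes was 0, as it was without mTEC-IV replicate 2, and 3 neuroendocrine genes were higher without mTEC-I replicate 2. The part of such cells in the peaks of Ptprc, Pik3cg and Ptpn6 was not tested.

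Finally the strongest peaks of mTEC-IV were set against those of the other populations, over the same merged peaks and the mean of 2 libraries each. Of the 100 strongest in mTEC-IV, 52 were among the strongest 100 of mTEC-I, 54 of mTEC-II and 52 of mTEC-III, and 43 belonged to all 4. The other populations shared 64 to 68 of 100 with each other. In mTEC-IV 37 of the 100 were in no other population's strongest 100, with Mctp1, Rassf6, Pik3cg, Abhd2, Mbnl1, Ptpn6 and Pou2f3 among them. Most strong mTEC-IV peaks were nevertheless called elsewhere too: 82 of the strongest 100 list peaks lay in merged peaks drawn from all 4 populations' lists, against 31.0% of all list peaks, and 7 lay in merged peaks drawn from the mTEC-IV list alone, against 17.5%. The lists held 7034 peaks in mTEC-I, 23947 in mTEC-II and 19320 in mTEC-III, against 22757 in mTEC-IV. The short mTEC-I list thus limits the share of all mTEC-IV peaks that can lie in all 4. These counts depend on the list lengths and on the depth of each library, and were not tested.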

How the data were processed

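Per the labels, H3K4me2 was precipitated from formaldehyde-fixed sorted thymic cells with the monoclonal antibody abcam ab3254 by a protocol developed from iChIP. The build mm9, bcl2fastq 2.15.0.4 and Picard 1.108 are named in the submitters' processing notes, and the aligner was not given in the sources used here. Per the file headers, HOMER's annotatePeaks wrote the merged table, which holds the signal of each library in tags per 10000000, as the authors deposited it. In the mTEC-IV list the authors give each peak's signal with both replicates combined, and its fold over a control as a ratio. That fold is printed here for the densest peaks alone.

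Each list peak was joined to the merged peak that it overlaps most (at least 1 base). Both mitochondrial peaks were left out. Peaks were summed per library over the gene of the nearest start, as the table annotates it. Genes whose sum reached 10 tags per 10000000 in 2 or more libraries were tested on log2(sum + 1), computed here from the deposited signal, with limma 3.58.1 (R 4.3.3). The fit held all 8 libraries, which share 1 estimate of the spread, with 4 residual and 11.4 prior degrees of freedom; p-values are Benjamini-Hochberg adjusted over all genes, and n is 2 libraries per population. On simulated data limma called 48 of 50 genes with a log2 difference of 1, 39 of 50 of -1, 11 of 50 of 0.5 and 3 of 15536 unchanged genes. A difference on this scale understates the change of low genes.

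Tried as alternatives were another pseudocount, no filter, peaks within 20 kb, equal totals in peaks, a replicate block, leaving out each library, and edgeR 4.0.16 and DESeq2 1.42.0 on tags recovered from the signal (100% of values lay within 0.1 tags of a multiple of 0.5 tags in all 8 libraries). Named are the 10 strongest and 10 widest list peaks with the next one, the 5 strongest of each class, the 5 densest, the 15 highest genes, the genes with most peaks, the highest and lowest members of each list, and the gate genes. The peaks, genes and lists were chosen with earlier results of these data known. Some genes are not reported here.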

Additional observations from a re-analysis of the deposited data

Results flagged for a closer look

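Both mitochondrial peaks of the merged table stayed out of every value above, and they held signal in each mTEC-IV library. Their summed signal was 373 tags per 10000000 in mTEC-IV replicate 1 and 454 in replicate 2, above the limit that a count of 0 allows. The other libraries ranged from 275 to 25225, the highest being mTEC-I replicate 2.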

How the results depend on the processing

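The number of genes called higher in mTEC-IV was 3214 and stayed between 2304 and 3825 under the other settings, and leaving out 1 library gave 1899 to 4134. The number called lower was 1988, but 3324 with equal totals in peaks, and leaving out 1 library gave 1062 to 2834. With edgeR 3825 genes were higher and 2966 lower, with DESeq2 2678 and 1595. A replicate block gave 3187 and 1953. Deviations of same-numbered libraries correlated at -0.007 to 0.036, so no pairing by number was seen. A shared sort or batch is not excluded by this, because noise of single libraries can hide it. The strongest peaks hold 18.7% of the signal when the strongest 5% are taken, and the 5.73% of the strongest 1% was 5.74 or 5.75 with 1 mTEC-IV library left out. Ranking by tags per kb kept 8 of the strongest 100 peaks, and the width of the merged peak kept 48 of the widest 100. Of the strongest 100 genes 44 were kept with peaks within 20 kb and 40 by the highest single peak. With peaks within 20 kb the log2 difference changed sign for Flt1 (-0.05), Lifr (-0.30) and Snap25 (1.46) and vanished for Pax9 (0.00); the cause was not tested. Depth limits mTEC-I replicate 2 most, where 1 tag is worth 5.88. With 2 libraries a population, 8 of 50 simulated falls of 0.5 were called, so small differences can be missed.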

Other observations

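Several further strong peaks of mTEC-IV fall outside the rule for named genes, and they are named here after their values were seen. An intron peak of Tmem245, assigned to the microRNA gene Mir32, stood at 1012 and 941 in mTEC-IV and at means of 47.8 to 88.2 in the other populations. Sh2d7, a gene expressed in tuft cells, stood at 734 and 819 against 39.4 to 68.6. Its peaks came from the mTEC-IV list alone, so they entered the merged peaks only because they were high there. Chdh, the choline dehydrogenase gene, stood at 886 and 967 against 236 to 275. Vav1, a guanine nucleotide exchange factor of blood cell signalling, stood at 816 and 934 against 269 to 307. In each of these peaks mTEC-IV lay above the other populations, but they were picked for their values, so this is a description and no test. The strongest 500 list peaks were nearest to 487 genes, and 13 genes held 2 or more of them, among them Eya1, Ivns1abp, Lincppara, Mbnl1, Runx1 and Cd274.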
